A study of Mus musculus with 38 samples.

Results

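Control primary tumours of the mouse mammary line 4T1 were set against 4T1 cells in culture, to describe which transcripts the tumour in the animal carries that the cultured cells lack, and the reverse. 4T1 is a mammary carcinoma line of BALB/c mice that is widely used as a model of triple-negative breast cancer. The comparison used 9 of the 38 libraries of the series, chosen by their labels and their tables. Of these, 4 were control primary tumours, labelled as given no treatment, and 5 were cultures of transfected 4T1 cells. By their titles, 3 of the cultures received the miRNA miR-145a-3p and 2 a scrambled miRNA. The column names of the table give the reverse, so all 5 cultures were pooled, and they are called scramble 1 and 2 and miR-145a-3p 1 to 3 after the titles. A second comparison used 5 primary tumours of the IR group, IR standing for insulin resistance in the title of the series, and 3 untreated 4T1 cultures of 72 h. The strain, sex and age of the hosts, the site of the tumours, the number of animals and how the IR group was made are not given in the sources used here.

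A culture of a carcinoma line holds tumour cells alone, on plastic and in medium. A tumour grown in an animal also holds host fibroblasts that lay down collagen, blood vessels with their mural cells, macrophages and other leukocytes, and, at its rim, the tissue it grows into. The tumour cells in it face gradients of oxygen and nutrients that a culture dish does not have.

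Tumours and cultures came from separate experiments, so group and experiment are the same split and their parts in a difference cannot be told apart. For that reason a gene was called higher or lower only where it differed by 8-fold or more and also passed the test. That test was edgeR's quasi-likelihood test with Benjamini-Hochberg adjustment over all genes tested, at an adjusted p of 0.05. The titles number the libraries as biological replicates but name neither the animal nor the dish behind any of them, so the p-values cover only the spread between these libraries, which may be technical. Summed counts per library lay between 18462719 and 20296719 in the control tumours and between 24972516 and 32637504 in the transfected cultures. Levels are given as CPM, the count of a gene scaled to the size of its library after edgeR's normalization. CPM is not corrected for gene length, so levels are compared between libraries and not between genes. Where a gene had no count in culture, its fold is a lower bound, computed as if the 5 culture libraries together had held 3 counts.

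Of 12647 genes tested, 1259 were called higher in control tumours, which is 9.95%, and 62 were called lower, which is 0.49%. At any fold 8904 genes passed the test, 4655 in the higher and 4249 in the lower direction. The tumour and culture libraries did not overlap for 1255 of the 1259 and for 58 of the 62. These genes were chosen for a large difference between the same libraries, which nearly fixes those counts. The share without overlap over all genes tested is not reported here. In all 5 cultures 979 of the 1259 genes lay below 1 CPM, and 307 of them had no count there at all. Another 15 of the 1259 were at 10 CPM or more in every culture. Together the 1259 genes took 5.7%, 7.0%, 6.2% and 5.8% of the CPM in control tumours 1 to 4, against 0.117% to 0.150% in the cultures. Genes at or near 0 in culture could pass the filter on low counts, 3 CPM or more in at least 3 libraries, only by being high in tumours, so the counts over gene lists below describe the lists and carry no test of their own.

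The labelled cell type was checked with epithelial genes, a leukocyte gene and a gene of the inactive X chromosome. Epcam, an epithelial surface protein, stood at 381, 299, 324 and 489 CPM in control tumours 1 to 4, against 182 to 219 CPM in the cultures, a difference under 8-fold (log2 fold change 0.83, SE 0.14, adjusted p = 2.49e-04). Krt8, a keratin of simple epithelia, stood at 1078 to 1742 CPM in tumours and 1011 to 1364 CPM in cultures and did not pass the test (adjusted p = 0.0984). Vim, a mesenchymal filament protein that 4T1 cells also make, stood at 2832 to 3370 CPM in tumours and 2695 to 2942 CPM in cultures and did not pass it either (adjusted p = 0.119). Ptprc, the leukocyte antigen CD45, stood at 54.6, 220.1, 71.3 and 58.1 CPM in tumours, against 0 to 0.326 CPM in cultures. Xist, the RNA that coats the inactive X chromosome of female cells, stood at 76.6, 159, 97.8 and 83.2 CPM in tumours, against 0.0629 to 0.454 CPM in cultures. Both genes were high in every tumour and under 1 CPM in every culture. In bulk RNA, fewer cells of a type and less RNA per cell cannot be told apart.

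**Figure D1:**
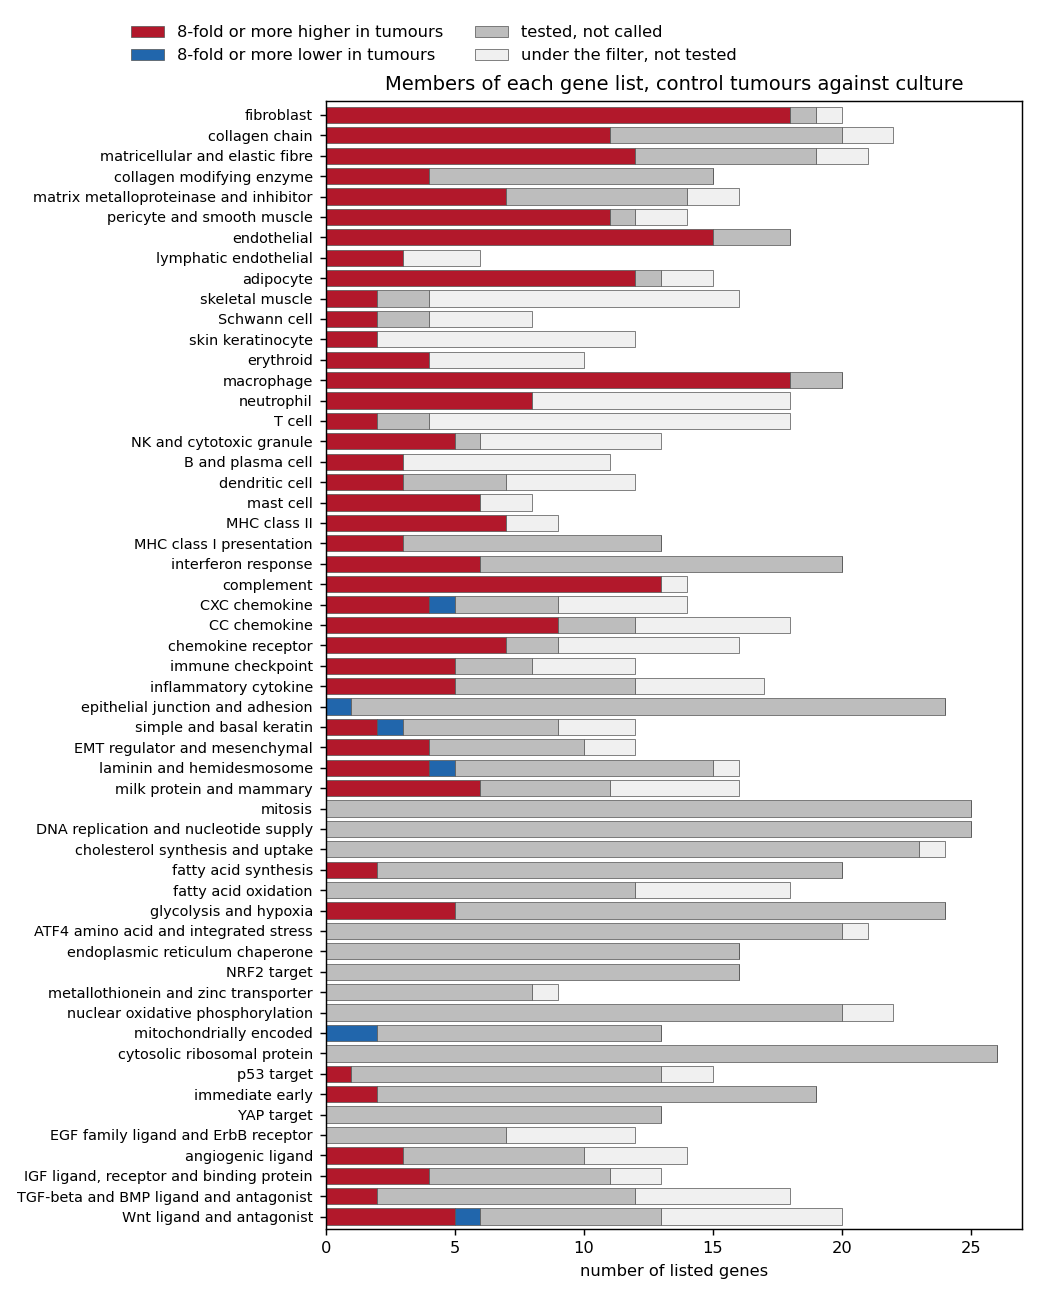
Bars give, for each gene list, how many of its members were called higher or lower in control tumours than in transfected cultures at 8-fold or more, against the number listed. Stromal and immune lists hold most of the calls, while the lists of mitosis, DNA replication and YAP targets hold 0.

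The 12 largest rises came from macrophage, antigen-presentation, matrix and plasma-protein genes. Lyz2, the lysozyme of macrophages and neutrophils, stood at 2175, 1598, 2122 and 734 CPM in control tumours 1 to 4, with no count in the cultures (at least 71250-fold higher, adjusted p = 1.02e-06). Tumour 4 had the lowest level. The 3 chains of complement C1q, which macrophages secrete, were all among these genes. C1qa stood at 729, 505, 647 and 617 CPM in tumours, with no count in the cultures (at least 26860-fold higher, adjusted p = 2.77e-08). C1qb stood at 323, 281, 346 and 271 CPM in tumours, with no count in the cultures (at least 13120-fold higher, adjusted p = 1.98e-08). C1qc stood at 401, 315, 397 and 362 CPM in tumours, with no count in the cultures (at least 15850-fold higher, adjusted p = 1.70e-08). The tumours were even for all 3 chains. Ctss, a lysosomal protease that trims antigen, stood at 445, 397, 427 and 414 CPM in tumours, against 0 to 0.0457 CPM in cultures (46010-fold higher with a counting interval of 9726 to 2141000, adjusted p = 6.68e-11). Laptm5, a lysosomal membrane protein of blood cells, stood at 309, 442, 324 and 287 CPM in tumours, with no count in the cultures (at least 14650-fold higher, adjusted p = 6.68e-08). Without scramble 2, which held the culture reads of Ctss, the log2 difference of that gene was 16.29, against 14.97 with it.

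The remaining large rises were Col3a1, class II chains, an immunoglobulin chain and plasma proteins. Col3a1, the fibrillar collagen of loose connective tissue, stood at 1194, 1593, 2079 and 1164 CPM in tumours, with no count in the cultures (at least 64820-fold higher, adjusted p = 1.29e-07). H2-Aa, the alpha chain of a class II molecule, stood at 154, 645, 230.0 and 286 CPM in tumours, against 0 to 0.0411 CPM in cultures (40020-fold higher with a counting interval of 7721 to 1699000, adjusted p = 4.63e-08). H2-Eb1, a class II beta chain, stood at 142, 546, 209.5 and 239 CPM in tumours, with no count in the cultures (at least 12220-fold higher, adjusted p = 6.46e-06). Tumour 2 was the highest for both class II chains. Without miR-145a-3p 1, which held the culture reads of H2-Aa, its log2 difference was 15.90, against 14.61 with it. Igkc, the constant part of the kappa light chain, stood at 1.39, 1064, 3.23 and 10.8 CPM in tumours, with no count in the cultures (at least 11600-fold higher, adjusted p = 0.0127). Nearly all of its reads came from tumour 2, and without tumour 2, tumour 3 or tumour 4 it could not pass the filter. The iron carrier transferrin, Trf, stood at 975, 601, 917 and 466 CPM in tumours, against 0 to 0.0411 CPM in cultures (45220-fold higher with a counting interval of 13080 to 390100, adjusted p = 1.34e-09). Haptoglobin, Hp, stood at 563, 620.0, 541 and 174 CPM in tumours, with no count in the cultures (at least 20400-fold higher, adjusted p = 3.34e-06). Tumour 4 was the lowest for both plasma proteins.

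Fibroblast genes were high in all 4 tumours. Of 20 listed fibroblast genes 18 were called higher and 0 lower, with 19 passing the filter, beside 9.95% of all genes tested called higher. Col1a1, the main chain of type I collagen, stood at 1113, 1862, 2419 and 1943 CPM in tumours 1 to 4, against 2.42, 3.70, 1.85, 0.660 and 0.692 CPM in cultures (log2 fold change 9.97, SE 0.53, adjusted p = 7.07e-08). Dcn, the collagen-binding proteoglycan decorin, stood at 82.8, 115, 108 and 94.2 CPM in tumours, against 0 to 0.0411 CPM in cultures. Pdgfra, the PDGF receptor of fibroblasts, stood at 79.6, 68.1, 88.5 and 79.2 CPM in tumours, against 5.85 to 8.14 CPM in cultures (12.3-fold higher, adjusted p = 4.64e-09), and at a log2 difference of 2.66 over untreated cultures. For these 3 genes the lowest tumour lay above the highest culture. The listed gene that went the other way was Fbln2, a matrix protein, at 325, 317, 397 and 325 CPM in tumours and 640.0 to 792 CPM in cultures (log2 fold change -1.11, SE 0.10, adjusted p = 3.13e-06), which is under 8-fold; it is named after its values were seen. The summed level of the list was 4032, 5787, 7150 and 5455 CPM in tumours 1 to 4, against 653 to 801 CPM in cultures. Fbln2 alone, at 640.0 to 792 CPM, made nearly all of the sum in cultures.

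Among 22 collagen genes 11 were called higher and 0 lower, and 20 passed the filter. Col6a1, a chain of the beaded-filament collagen VI, was already made in culture and stood at 434, 386, 447 and 791 CPM in tumours, against 10.7, 12.1, 11.8, 14.2 and 13.4 CPM in cultures (log2 fold change 5.37, SE 0.23, adjusted p = 1.64e-08). Col6a2, a partner chain, stood at 258 to 518 CPM in tumours, against 0.229 to 0.440 CPM in cultures (995-fold higher, adjusted p = 2.38e-09). Col5a1, which starts collagen fibrils, stood at 173 to 293 CPM in tumours and 40.5 to 58.1 CPM in cultures, under 8-fold (log2 fold change 2.29, SE 0.16, adjusted p = 5.34e-07). The basement membrane chains Col4a1 and Col4a2, chosen after their values were seen, did not pass the test (adjusted p = 0.611 and adjusted p = 0.692). The 11 called genes were Col1a1, Col1a2, Col3a1, Col5a2, Col5a3, Col6a1, Col6a2, Col6a3, Col12a1, Col14a1 and Col15a1, and those outside the naming rule are given to complete the count. The median log2 difference over the 20 genes was 4.59, against 0.02 over all genes tested. It was 5.46 without tumour 1, 5.52 without tumour 2 and 5.45 without tumour 3, over the members then tested.

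Matrix proteins that bind cells and growth factors split by gene. Of 21 listed, 12 were called higher and 0 lower, and 19 passed the filter. Postn, periostin, stood at 265, 350.0, 404 and 343 CPM in tumours, against 5.44 to 15.1 CPM in cultures (log2 fold change 4.91, SE 0.28, adjusted p = 1.22e-07). Bgn, the proteoglycan biglycan, stood at 188, 299, 297 and 309 CPM in tumours, against 0 to 0.164 CPM in cultures. Tumour 1 was the lowest for both. Elastin, Eln, stood at 131, 132, 239.6 and 87.8 CPM in tumours, with no count in the cultures (at least 6351-fold higher, adjusted p = 1.95e-06). Spp1, osteopontin, which macrophages and tumour cells both secrete, stood at 5248, 2749, 4281 and 4127 CPM in tumours, against 312, 261, 239.6, 253 and 244 CPM in cultures (log2 fold change 3.97, SE 0.18, adjusted p = 2.66e-08). Sparc, a collagen chaperone of the matrix, stood at 1087 to 1314 CPM in tumours and 161 to 217 CPM in cultures, under 8-fold (log2 fold change 2.60, SE 0.12, adjusted p = 2.29e-08). Another 4 listed genes passed the test in the lower direction, each under 8-fold. Among all 12647 genes tested, 4249 passed it in that direction. Ccn1, a target of the YAP coactivator, stood at 90.8 to 116 CPM in tumours, against 669.7 to 748 CPM in cultures (6.92-fold lower, adjusted p = 3.80e-09). Ccn2, another such target, stood at 71.1 to 125 CPM in tumours, against 399.5 to 527 CPM in cultures (5.32-fold lower, adjusted p = 4.63e-07). Thbs1 and Ccn4 were the others, chosen after their values were seen (4.77-fold lower, adjusted p = 1.94e-05, and 2.00-fold lower, adjusted p = 0.0182). In IR tumours against untreated cultures the log2 difference was -1.13 for Ccn1, -0.01 for Ccn2, -0.71 for Thbs1 and 1.05 for Ccn4. Of these 4, Ccn1 passed the test in the lower direction there (adjusted p = 0.00112) and Ccn4 in the higher direction (adjusted p = 0.0172).

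Enzymes that modify and cut the matrix gave smaller shares. Of 15 collagen-modifying genes, all of which passed the filter, 4 were called higher, beside 9.95% of all genes tested. The 4 were Lox, Loxl1, Loxl2 and Adamts2, which cross-link collagen or trim its propeptide. Lox stood at 64.0, 74.1, 96.9 and 79.2 CPM in tumours, with no count in the cultures (at least 3377-fold higher, adjusted p = 1.01e-07). Of 16 metalloproteinases and their inhibitors 7 were called higher, and 14 passed the filter; the count was 6 without tumour 2 and 5 without tumour 4. Mmp2, a gelatinase of fibroblasts, stood at 73.4, 90.3, 135 and 97.3 CPM in tumours, against 0.0314 to 0.164 CPM in cultures (log2 fold change 10.09, SE 0.32, adjusted p = 2.39e-09). Mmp12, the elastase of macrophages, stood at 59.1, 25.1, 28.9 and 79.7 CPM in tumours, against 0.0407 to 0.341 CPM in cultures (257-fold higher, adjusted p = 2.18e-07). Mmp13, a collagenase, stood at 14.0, 39.2, 12.3 and 119.5 CPM in tumours, against 3.70 to 4.77 CPM in cultures (log2 fold change 3.51, SE 0.61, adjusted p = 3.86e-04). Tumour 4 was the highest of the 4, and without it the log2 difference of Mmp13 was 2.46, under 8-fold. Mmp9, chosen after its values were seen, stood at 167, 155, 139.6 and 423 CPM in tumours and 225, 175, 352, 376 and 385 CPM in cultures and did not pass the test (adjusted p = 0.275).

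Vessel genes were present in every tumour. Of 18 endothelial genes 15 were called higher and 0 lower, and all 18 passed the filter. Pecam1, the junction protein CD31, stood at 94.7, 108, 73.3 and 145 CPM in tumours, against 0.0629 to 0.285 CPM in cultures (648-fold higher, adjusted p = 3.51e-09). Cdh5, the cadherin of endothelial junctions, stood at 41.9, 56.3, 45.7 and 81.2 CPM in tumours, against 0 to 0.287 CPM in cultures. Kdr, the main VEGF receptor of vessels, stood at 13.0, 26.1, 19.2 and 31.7 CPM in tumours, against 0 to 0.0457 CPM in cultures. Tumour 4 was the highest for these endothelial genes. Pericyte and smooth muscle genes were called higher for 11 of 14, with 12 passing the filter. Rgs5, a pericyte marker, stood at 39.0, 61.7, 37.4 and 79.1 CPM in tumours, against 0.0379 to 0.370 CPM in cultures. Acta2, smooth muscle actin, stood at 76.1, 112, 104 and 142 CPM in tumours, against 0.0314 to 0.341 CPM in cultures (614-fold higher, adjusted p = 4.27e-09).

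Lymphatic genes were less even. Of 6 listed, 3 passed the filter and all 3 were called higher. Lyve1, a hyaluronan receptor of lymphatic vessels and of some macrophages, stood at 8.09, 16.1, 9.25 and 2.62 CPM in tumours, against 0 to 0.0457 CPM in cultures. Pdpn, podoplanin, stood at 16.5, 15.6, 21.1 and 23.5 CPM in tumours, against 0 to 0.379 CPM in cultures. The summed level of the list was 28.6, 225, 35.7 and 35.0 CPM in tumours 1 to 4. Most of the sum in tumour 2 was Ccl21a, a lymphatic chemokine chosen after its values were seen, at 1.60, 182, 0.556 and 0.0954 CPM in tumours. The count was 1 without tumour 2 and 2 without tumour 1 or tumour 4.

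**Figure D2:**
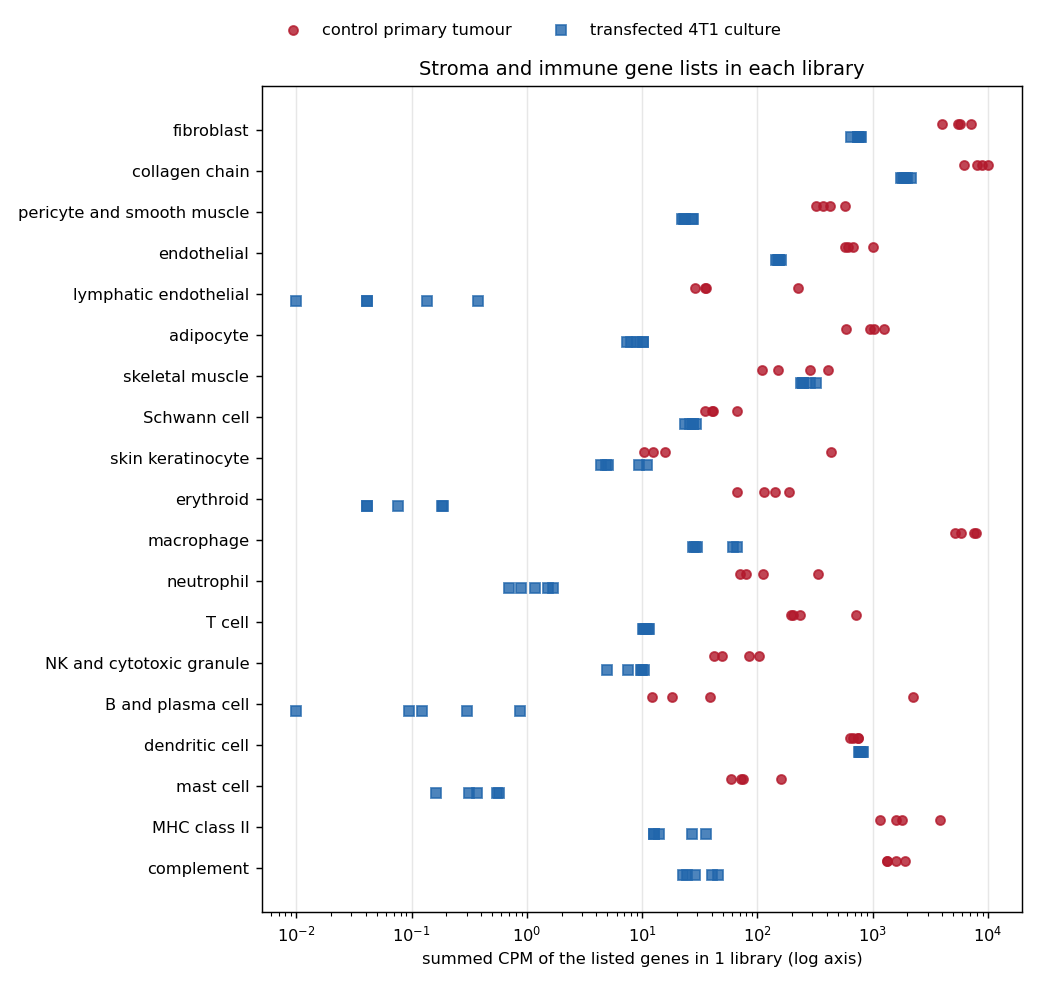
Points give the summed CPM of each cell-type list in every library on a log axis, control tumours and transfected cultures in separate colours, with libraries without a count drawn at 0.01. Macrophage and fibroblast sums of the 4 tumours lie close together and above the cultures, while B and plasma cell, lymphatic and skin keratinocyte sums differ between tumours.

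Genes of fat cells were in all tumours. Of 15 adipocyte genes 12 were called higher, and 13 passed the filter. Adipoq, the hormone adiponectin, stood at 41.6, 49.1, 33.7 and 18.7 CPM in tumours, against 0 to 0.183 CPM in cultures. Fabp4, a fatty acid carrier of adipocytes, macrophages and small vessels, stood at 248, 286, 224 and 183 CPM in tumours, against 0.0314 to 0.303 CPM in cultures (1446-fold higher, adjusted p = 1.34e-09). Cfd, adipsin, stood at 263, 244, 199 and 101 CPM in tumours, with no count in the cultures (at least 8678-fold higher, adjusted p = 1.42e-06). Each of these was lowest in tumour 4. Plin1, which coats lipid droplets, stood at 22.4, 29.2, 20.8 and 10.2 CPM in tumours, with no count in the cultures (at least 888-fold higher, adjusted p = 4.85e-06).

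Muscle, skin and nerve genes were uneven between tumours. Of 16 skeletal muscle genes 4 passed the filter and 2 of these 4, Myh1 and Tnnt3, were called higher, beside 9.95% of all genes tested. The count was 1 without tumour 1 or tumour 4. The summed level of the list was 286, 109, 412 and 152 CPM in tumours 1 to 4 and 239 to 323 CPM in cultures, so the groups overlapped. Acta1, skeletal muscle actin, stood at 40.2, 0, 63.1 and 0.334 CPM in tumours, against 0 to 0.757 CPM in cultures. Tumours 1 and 3 held nearly all of it. Krt10, a keratin of differentiating epidermis, stood at 177, 4.95, 4.25 and 4.29 CPM in tumours, against 3.62 to 7.69 CPM in cultures (log2 fold change 3.23, SE 1.09, adjusted p = 0.0212). Krt1, its partner, stood at 123, 0, 0 and 0.143 CPM in tumours, with no count in the cultures. Tumour 1 alone was high for both epidermal keratins, and without it the log2 difference of Krt10 was -0.16 and the count of called epidermal genes 1 of 12 in place of 2. Of 8 Schwann cell genes 4 passed the filter and 2 were called higher. The count was 0 without tumour 2 and 1 without tumour 1 or tumour 4. Of 10 erythroid genes 4 passed the filter and were called higher, and the count was 3 without tumour 1, tumour 2 or tumour 4.

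Macrophage genes were high in all 4 tumours. Of 20 listed, 18 were called higher and 0 lower, and all 20 passed the filter. The summed level was 7832, 5870, 7542 and 5192 CPM in tumours 1 to 4, against 27.7 to 65.9 CPM in cultures. Adgre1, the F4/80 antigen, stood at 44.2, 43.3, 48.1 and 38.3 CPM in tumours, with no count in the cultures (at least 1871-fold higher, adjusted p = 5.75e-08). Csf1r, the receptor for the macrophage growth factor, stood at 206, 218, 263 and 178 CPM in tumours, against 3.05 to 5.57 CPM in cultures (53.9-fold higher, adjusted p = 3.56e-09). Cd68, a protein of lysosomes, stood at 70.4, 56.5, 65.4 and 60.5 CPM in tumours, against 2.61 to 7.13 CPM in cultures (13.8-fold higher, adjusted p = 1.04e-06). Each of these 3 genes varied little between tumours. Apoe, a lipid carrier, stood at 2176, 1901, 2362 and 1628 CPM in tumours, against 6.29 to 23.5 CPM in cultures (173-fold higher, adjusted p = 1.62e-07). Arg1, the arginase of alternatively activated macrophages, stood at 846, 283, 480.1 and 449 CPM in tumours, against 0.229 to 0.535 CPM in cultures (1313-fold higher, adjusted p = 8.55e-09). The listed genes that were not called were Cd14 and Gpnmb, chosen after their values were seen. Cd14, a co-receptor for endotoxin, stood at 37.6 to 53.8 CPM in tumours, against 7.36 to 9.88 CPM in cultures (5.41-fold higher, adjusted p = 1.59e-07). Gpnmb, a lysosomal glycoprotein, stood at 1.34 to 2.58 CPM in tumours, against 5.17 to 19.7 CPM in cultures (5.67-fold lower, adjusted p = 0.00101).

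The promoters of C1qc and Cd68 are shown because the macrophage factor PU.1 acts through a purine-rich core in many myeloid promoters. They are RefSeq windows around the annotated start on GRCm38.p6, at chr4:136892865-136893164, minus strand for C1qc and at chr11:69666121-69666420, minus strand for Cd68, with capitals marking GAGGAA on either strand.
C1qc: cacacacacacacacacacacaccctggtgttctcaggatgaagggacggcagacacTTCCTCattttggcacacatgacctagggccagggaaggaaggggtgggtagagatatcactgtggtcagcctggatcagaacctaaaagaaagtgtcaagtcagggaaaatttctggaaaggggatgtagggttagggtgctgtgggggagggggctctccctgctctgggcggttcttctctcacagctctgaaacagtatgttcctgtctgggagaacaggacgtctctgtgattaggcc
Cd68: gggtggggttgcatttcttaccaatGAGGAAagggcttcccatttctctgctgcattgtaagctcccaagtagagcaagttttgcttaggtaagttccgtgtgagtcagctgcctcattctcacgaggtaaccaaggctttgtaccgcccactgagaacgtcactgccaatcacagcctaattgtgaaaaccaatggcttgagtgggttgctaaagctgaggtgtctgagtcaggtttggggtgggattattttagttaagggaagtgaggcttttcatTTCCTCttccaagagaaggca
GAGGAA was found on either strand in 10 of 16 promoters of the macrophage list, or 62.5%, and in 28.3% of all 32851 promoters in the table, which holds 13 of the 20 listed genes. The longer GAGGAAGT, which contains it, was in 1 of 16, or 6.25%, against 3.2% of all. These matches describe the letters of the windows, which were searched after the data had been seen.

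Class II antigen presentation and complement genes were also high. Of 9 listed class II genes 7 passed the filter and all 7 were called higher. Cd74, the invariant chain, stood at 598, 1887, 812 and 868 CPM in tumours, against 6.43 to 14.0 CPM in cultures (log2 fold change 6.71, SE 0.40, adjusted p = 1.39e-07). H2-Ab1, a class II beta chain, stood at 174, 541, 238 and 287 CPM in tumours, against 0.283 to 0.493 CPM in cultures (803-fold higher, adjusted p = 1.70e-08). Ciita, the coactivator that switches these genes on, stood at 5.25, 40.7, 7.83 and 10.7 CPM in tumours, against 0 to 0.303 CPM in cultures. Tumour 2 was the highest for all 3 genes. Complement genes were called higher for 13 of 14, and 13 passed the filter. C4b, a complement component of the classical pathway, stood at 73.1, 173, 127 and 78.0 CPM in tumours, against 0 to 0.189 CPM in cultures (1139-fold higher, adjusted p = 2.71e-08). C3, the central complement component, was made in culture too and stood at 159, 416, 132 and 829.6 CPM in tumours, against 36.7, 28.9, 21.2, 20.1 and 25.3 CPM in cultures (log2 fold change 3.86, SE 0.51, adjusted p = 4.87e-05). Tumours 2 and 4 were high for C3, and its log2 difference was 3.19 without tumour 4.

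Neutrophil genes were fewer. Of 18 listed, 8 passed the filter and all 8 were called higher. S100a8, a calprotectin chain of neutrophils and monocytes, stood at 3.81, 31.8, 3.23 and 11.1 CPM in tumours 1 to 4, against 0 to 0.594 CPM in cultures. S100a9, its partner chain, stood at 5.25, 45.5, 5.46 and 26.3 CPM in tumours, with no count in the cultures (at least 887-fold higher, adjusted p = 3.00e-04). Both were highest in tumour 2, and without it the log2 difference of S100a9 was 11.21, against 11.91 with it. That of S100a8 was 4.73 without tumour 2 and 6.39 without scramble 2, against 5.75 with all libraries. Ly6g, the defining neutrophil antigen, stood at 0, 1.19, 0 and 0.334 CPM in tumours and did not pass the filter.

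Lymphocyte genes were few outside tumour 2. Of 18 T cell genes 4 passed the filter and 2 of these 4, Cd4 and Thy1, were called higher, beside 9.95% of all genes tested. Members under the filter could not be called. Thy1, a surface antigen that T cells and fibroblasts share, is on the fibroblast list as well and stood at 167, 199, 166 and 196 CPM in tumours. Cd3e, a chain of the T cell receptor complex, stood at 0.979, 38.0, 2.93 and 1.38 CPM in tumours. Cd8a, a co-receptor of cytotoxic T cells, stood at 0.927, 33.4, 0.960 and 0.954 CPM in tumours. Cd4, a co-receptor that macrophages and dendritic cells can also make, stood at 2.94, 43.9, 4.29 and 4.62 CPM in tumours, with no count in the cultures. In each of these tumour 2 exceeded the other tumours. Of 11 B and plasma cell genes 3 passed the filter and all 3 were called higher. Cd79a, a chain of the B cell receptor, stood at 0, 108, 0.0505 and 0.0954 CPM in tumours. Ighm, the heavy chain of IgM, stood at 4.84, 398, 7.02 and 14.3 CPM in tumours, with no count in the cultures (at least 4564-fold higher, adjusted p = 0.0056). Summed B and plasma cell levels were 12.3, 2229, 18.3 and 38.4 CPM in tumours 1 to 4, and summed T cell levels were 197, 717, 205 and 234 CPM, of which Thy1 made the larger part in tumours 1, 3 and 4. The B and plasma cell count was 2 without tumour 2 or tumour 4, the class II count was 6 without tumour 2, and the log2 differences of Cd4 and Ighm were 9.57 and 10.71 without it, against 11.35 and 14.28 with it.

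Cytotoxic, mast and dendritic cell genes were listed as well. Of 13 genes of natural killer and cytotoxic cells 6 passed the filter and 5 were called higher, and the count was 4 without tumour 1 or tumour 2. Gzmc, a granzyme of activated killer cells, stood at 24.1, 12.7, 12.6 and 6.48 CPM in tumours, with no count in the cultures (at least 602-fold higher, adjusted p = 1.52e-05). Gzmb, the main granzyme of killer cells, stood at 8.76, 8.24, 4.29 and 7.39 CPM in tumours, with no count in the cultures (at least 308-fold higher, adjusted p = 5.71e-06). Ncr1, the defining receptor of natural killer cells, stood at 1.62 to 3.76 CPM in tumours and did not pass the filter. Killer granzymes were thus called while the defining receptor was under the filter. Mast cell genes were called higher for 6 of 8, and 6 passed the filter. Cpa3, mast cell carboxypeptidase, stood at 7.67, 4.67, 7.43 and 13.2 CPM in tumours, with no count in the cultures (at least 355-fold higher, adjusted p = 1.16e-05). Cma1, a mast cell chymase, stood at 8.19, 7.53, 7.53 and 18.9 CPM in tumours, with no count in the cultures (at least 453-fold higher, adjusted p = 1.32e-05). Tumour 4 was the highest in the summed level of mast cell genes, at 72.4, 58.5, 75.6 and 161 CPM in tumours 1 to 4. Of 12 dendritic cell genes 7 passed the filter and 3 were called higher, Itgax, Clec10a and Ccr7, beside 9.95% of all genes tested. The summed level of the list was 672, 748, 639 and 749 CPM in tumours, below 758 to 823 CPM in cultures. That order is not the one of most members. Of the 7 tested, 6 passed the test in the higher and 1 in the lower direction, with a median log2 difference of 1.61. Among all 12647 genes tested, 4655 passed it in the higher direction. The defining genes Flt3, Xcr1 and Clec9a, at 1.67 to 11.2 CPM, 0.906 to 2.95 CPM and 1.39 to 4.24 CPM in tumours, did not pass the filter.

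**Figure D3:**
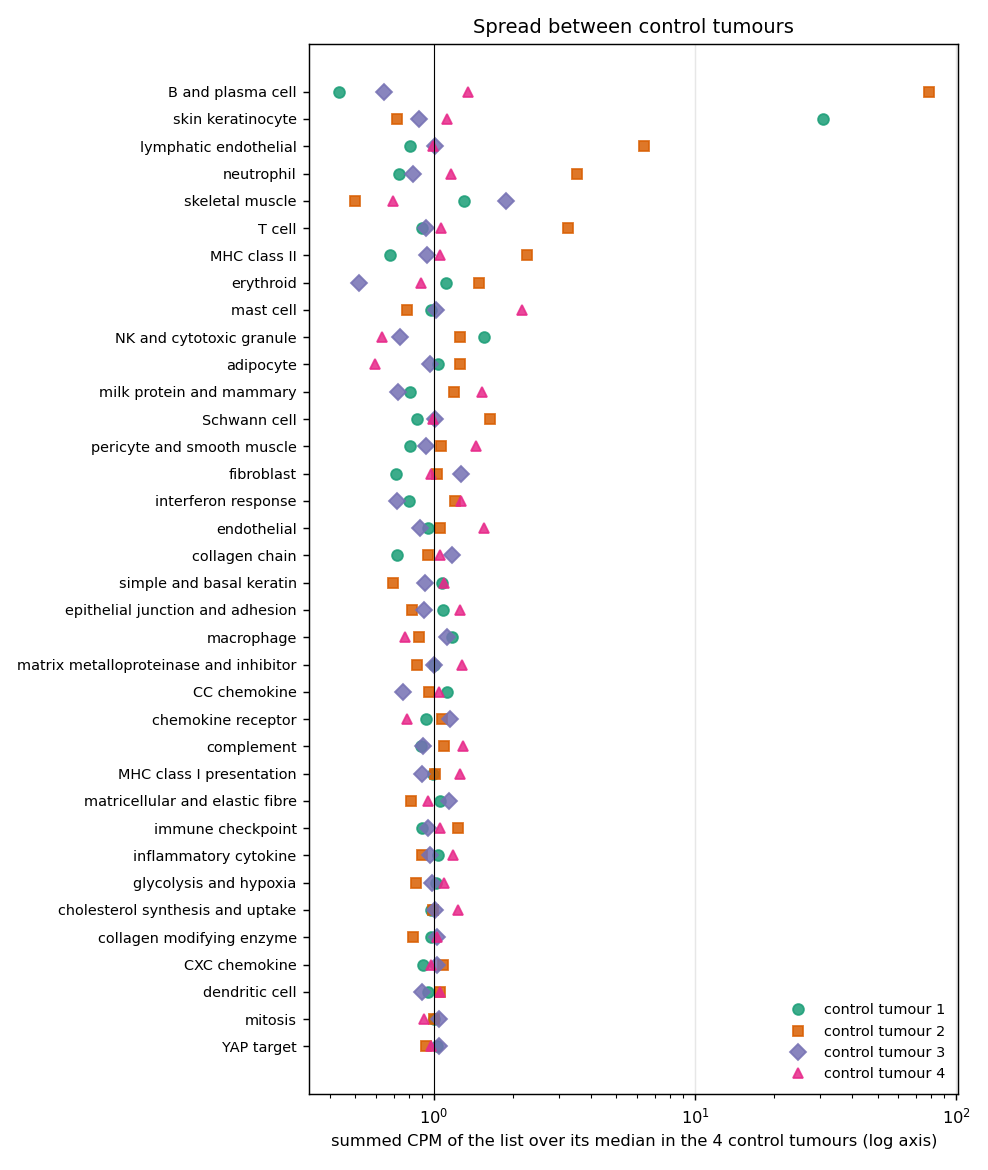
Points give each control tumour's summed CPM for a list, divided by the median of the 4 tumours, on a log axis. Tumour 2 stands at 78.6 times the median for B and plasma cell genes and tumour 1 at 30.9 times for skin keratinocyte genes.

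Chemokines, the ligands that draw leukocytes into tissue, differed by family. Of 14 CXC ligands 4 were called higher and 1 lower, and 9 passed the filter. Cxcl12, the stromal ligand of CXCR4, stood at 22.7, 70.4, 29.8 and 35.3 CPM in tumours, against 0 to 0.0914 CPM in cultures. Cxcl9, an interferon-gamma induced ligand for T cells, stood at 1.49, 33.0, 5.36 and 22.5 CPM in tumours, against 0 to 0.265 CPM in cultures. Tumour 2 was the highest for both. Cxcl5, a ligand of the neutrophil receptor CXCR2, was the one called lower, at 0.412, 1.91, 1.21 and 3.62 CPM in tumours and 21.1, 20.4, 18.3, 19.1 and 19.2 CPM in cultures (log2 fold change -3.44, SE 0.44, adjusted p = 3.99e-05), and at -2.77 when the epithelial lists were scaled to 0. Cxcl1, another such ligand, stood at 3.94 to 16.9 CPM in tumours and 21.5 to 46.3 CPM in cultures, under 8-fold (log2 fold change -1.99, SE 0.45, adjusted p = 0.0022), with a log2 difference of -2.64 without tumour 4. Both neutrophil ligands were thus on the lower side. Of 18 CC ligands 9 were called higher and 0 lower, and 12 passed the filter. Ccl8, a ligand for monocytes, stood at 104, 94.6, 60.2 and 333 CPM in tumours, with no count in the cultures (at least 6360-fold higher, adjusted p = 3.57e-05). Ccl2, the main monocyte attractant, stood at 47.4, 23.1, 24.8 and 30.4 CPM in tumours and 7.99, 6.99, 2.92, 4.21 and 4.68 CPM in cultures, under 8-fold (log2 fold change 2.55, SE 0.31, adjusted p = 2.57e-05). Tumour 4 was the highest for Ccl8, whose log2 difference was 14.02 without it and 14.75 with it.

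Chemokine receptors were called higher for 7 of 16, with 9 passing the filter. Ccr2, the receptor of inflammatory monocytes, stood at 73.9, 106, 133 and 55.0 CPM in tumours, against 0 to 0.122 CPM in cultures. Of 12 checkpoint ligands and receptors 8 passed the filter and 5 were called higher, beside 9.95% of all genes tested. The count was 4 without tumour 1, tumour 2 or tumour 4. Vsir, the checkpoint protein VISTA of myeloid cells, stood at 114, 121, 121 and 115 CPM in tumours, against 0.795 to 1.52 CPM in cultures (101-fold higher, adjusted p = 1.07e-09). Cd86, a costimulator of antigen-presenting cells, stood at 13.7, 20.0, 14.5 and 12.6 CPM in tumours, with no count in the cultures (at least 654-fold higher, adjusted p = 9.06e-07). Vsir and Cd86 were even across the 4 tumours. Cd274, the ligand PD-L1, stood at 8.19, 24.5, 13.4 and 18.9 CPM in tumours and 2.54, 4.21, 1.73, 2.04 and 1.71 CPM in cultures, under 8-fold (log2 fold change 2.74, SE 0.36, adjusted p = 5.13e-05), and without scramble 2 its log2 difference was 3.04. Of 17 inflammatory cytokine genes 12 passed the filter and 5 were called higher, Il1b, Il33, Osm, Il18 and Il1rn. Il1b, a cytokine of activated myeloid cells, stood at 29.1, 35.4, 35.6 and 44.7 CPM in tumours, against 0.122 to 0.549 CPM in cultures (126-fold higher, adjusted p = 2.89e-08). Il33, an alarmin of barrier and stromal cells, stood at 19.6, 20.6, 18.8 and 15.5 CPM in tumours, against 0.0814 to 0.530 CPM in cultures (55.8-fold higher, adjusted p = 2.40e-07). Il18 had a log2 difference of 3.06, and of 2.93 without miR-145a-3p 3.

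Interferon-stimulated genes passed the test more often than they reached 8-fold. Of 20 listed, all passed the filter, 19 passed the test in the higher direction and 6 were called, with a median log2 difference of 2.16. Among all 12647 genes tested, 4655 passed the test in the higher direction. Irf7, the factor that amplifies the response, stood at 50.2, 124, 39.8 and 70.2 CPM in tumours, against 9.62, 16.1, 2.18, 1.76 and 2.12 CPM in cultures (log2 fold change 3.50, SE 0.67, adjusted p = 7.38e-04). Ifit3, an RNA-binding effector of the response, stood at 9.32, 39.8, 7.43 and 19.7 CPM in tumours, against 2.08, 1.69, 0.452, 0.377 and 0.570 CPM in cultures (log2 fold change 4.21, SE 0.65, adjusted p = 1.59e-04). Isg15, a ubiquitin-like protein, stood at 36.6, 54.2, 30.3 and 50.0 CPM in tumours and 29.5, 42.3, 13.6, 13.0 and 12.6 CPM in cultures, under 8-fold (log2 fold change 0.95, SE 0.37, adjusted p = 0.0408). In all 3 genes the 2 cultures titled scramble lay above the 3 titled miR-145a-3p, and tumour 2 was the highest tumour. The count was 9 without the 2 scramble libraries, 5 without tumour 2 or tumour 4 and 7 without tumour 1, and 16 of the list were called in IR tumours against untreated cultures. Ifit3 had a log2 difference of 3.59 without tumour 2, and Irf7 one of 4.21 without scramble 2 and of 2.48 with the scramble libraries as the only cultures. Ifit3 stood at 0.593, 0.108 and 0.0880 CPM in the untreated cultures, below both cultures titled scramble.

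The promoters of Isg15 and Ifit3 show the element of this response, at chr4:156200769-156201068, minus strand for Isg15 and at chr19:34583279-34583578, plus strand for Ifit3 (RefSeq, GRCm38.p6). Capitals mark both copies of GAAA with any 2 bases between them, a simple form of the interferon-stimulated response element, on either strand, and neighbouring matches overlap in Isg15.
Isg15: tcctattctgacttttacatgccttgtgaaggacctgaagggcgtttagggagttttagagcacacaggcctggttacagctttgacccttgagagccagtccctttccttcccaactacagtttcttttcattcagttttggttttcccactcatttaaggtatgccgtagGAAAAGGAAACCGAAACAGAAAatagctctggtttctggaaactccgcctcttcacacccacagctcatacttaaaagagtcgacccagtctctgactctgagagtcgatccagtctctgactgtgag
Ifit3: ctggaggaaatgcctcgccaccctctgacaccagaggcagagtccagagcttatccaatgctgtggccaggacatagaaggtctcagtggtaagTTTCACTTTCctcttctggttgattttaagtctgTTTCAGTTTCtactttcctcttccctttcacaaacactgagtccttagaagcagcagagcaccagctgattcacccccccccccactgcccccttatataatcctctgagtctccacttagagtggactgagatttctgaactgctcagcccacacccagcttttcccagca
The motif was in 11 of 18 promoters of the interferon list, or 61.1%, and in 3.44% of all 32851 promoters in the table, which holds 16 of the 20 listed genes. The list was made of genes known to respond to interferon, so this share describes the list and not the tumours. A search of 10 pericyte and smooth muscle promoters for the CArG element gave 0 matches, against 1.63% of all promoters.

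Class I antigen presentation, which tumour cells and host cells share, differed less. All 13 listed genes passed the test in the higher direction, and 3 of them, H2-T23, Tap1 and Psmb9, were called. Among all 12647 genes tested, 4655 passed it in that direction. H2-T23, the ligand Qa-1 of natural killer receptors, stood at 228, 346, 198 and 385 CPM in tumours, against 36.0, 36.7, 16.6, 15.7 and 15.3 CPM in cultures (log2 fold change 3.59, SE 0.34, adjusted p = 4.36e-06). Psmb9, a subunit of the immunoproteasome, stood at 114, 118, 93.2 and 148 CPM in tumours, against 7.17 to 8.31 CPM in cultures (15.3-fold higher, adjusted p = 3.56e-09). B2m, the light chain of class I molecules, stood at 1244 to 1559 CPM in tumours and 446 to 727 CPM in cultures, under 8-fold (log2 fold change 1.28, SE 0.18, adjusted p = 6.29e-05). Every tumour exceeded every culture for these 3 genes. With the scramble libraries as the only cultures the log2 difference of H2-T23 was 2.99, under 8-fold.

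Genes of epithelial junctions seldom reached 8-fold. Of 24 listed, all passed the filter, 0 were called higher and 1 lower, beside 0.49% of all genes called lower, and the median log2 difference was -0.86. Cdh1, E-cadherin, stood at 158, 146, 154 and 297 CPM in tumours, against 522, 459, 505, 538 and 544 CPM in cultures (log2 fold change -1.44, SE 0.20, adjusted p = 7.93e-05). Ovol1, a zinc finger factor that keeps cells epithelial, was the gene called lower, at 1.39, 0.572, 0.910 and 0.477 CPM in tumours and 6.74, 7.04, 7.31, 7.20 and 7.65 CPM in cultures (log2 fold change -3.10, SE 0.31, adjusted p = 6.63e-06). Its log2 difference was -2.93 without tumour 2 and -2.88 without tumour 4, under 8-fold. The call was also lost with upper quartile scaling (-2.96), total counts (-2.93) and replicate numbers as a block (-2.95). So it was with the epithelial lists scaled to 0 (-2.425), with IR tumours (-2.67) and with untreated cultures (-2.53). The median of the junction list was -0.21 with IR tumours in place of control tumours. Of 12 genes of epithelial-mesenchymal transition 10 passed the filter and 4 were called higher, beside 9.95% of all genes tested. The 4 were Zeb1, Twist2, Prrx1 and Cdh11, which fibroblasts also express. Zeb1, a repressor of E-cadherin, stood at 8.19, 14.4, 9.70 and 15.4 CPM in tumours, against 0.411 to 1.68 CPM in cultures (11.1-fold higher, adjusted p = 1.29e-05). Snai1, another such repressor, stood at 42.9, 33.9, 39.5 and 37.8 CPM in tumours and 21.1, 18.8, 21.1, 26.4 and 23.2 CPM in cultures, under 8-fold (log2 fold change 0.80, SE 0.12, adjusted p = 9.83e-05). Twist2 is a member of the fibroblast list as well, so that list is not independent of the 4 called genes. Of its 20 members 18 were called higher, Twist2 among them. The summed levels of the fibroblast list were 4032 to 7150 CPM in tumours and 653 to 801 CPM in cultures, nearly all of the latter from Fbln2. The part of fibroblasts in the 4 called genes was not tested.

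Keratins and mammary genes were mixed. Of 12 keratins 2, Krt5 and Krt15, were called higher and 1, Krt80, lower, with 9 passing the filter. Among all genes tested 9.95% were called higher and 0.49% lower. Krt5, a keratin of basal cells, stood at 37.6, 8.81, 11.8 and 4.96 CPM in tumours, with no count in the cultures (at least 679-fold higher, adjusted p = 1.39e-04). Krt14, its usual partner, stood at 55.6, 32.7, 41.5 and 83.5 CPM in tumours, against 170.4 to 238 CPM in cultures (3.75-fold lower, adjusted p = 4.64e-05). The log2 difference of Krt14 in IR tumours against untreated cultures was 0.44, which did not pass the test (adjusted p = 0.557). Tumour 1, which held the epidermal keratins, was the highest for Krt5. The log2 difference of Krt5 was 10.67 without tumour 1, against 11.53 with it. Krt80, a keratin of epithelial surfaces, stood at 7.05, 5.05, 6.22 and 4.29 CPM in tumours and 44.5, 43.2, 66.8, 70.0 and 71.1 CPM in cultures (log2 fold change -3.39, SE 0.22, adjusted p = 2.90e-07). Its call was lost at -2.71 when the epithelial lists were scaled to 0, at -2.95 with the scramble libraries as the only cultures and at -2.83 with IR tumours in place of control tumours. Of 16 genes of luminal mammary cells and milk 6 were called higher, and 11 passed the filter. The 6 were Csn2, Elf5, Csn3, Prlr, Ltf and Kit. Kit is on the mast cell list as well, and Ltf on the neutrophil list, so both are counted there too. Csn2, the milk protein beta-casein, stood at 5.67, 71.8, 0.910 and 87.9 CPM in tumours, with no count in the cultures (at least 1787-fold higher, adjusted p = 0.00267). Csn3, kappa-casein, stood at 9.53, 28.0, 12.1 and 25.3 CPM in tumours, against 0.489 to 1.32 CPM in cultures (20.1-fold higher, adjusted p = 3.88e-06). Both caseins were highest in tumours 2 and 4, and Csn2 could not pass the filter without tumour 1, tumour 2 or tumour 4. The count was 4 without tumour 1 or tumour 2 and 5 without tumour 4. In IR tumours against untreated cultures Kit was called higher, beside 13.7% of all genes tested. Csn2, Elf5, Csn3, Prlr and Ltf did not pass the filter there, so they could not be called. Csn2 stood at 0, 2.88, 0.106, 0 and 0.318 CPM in IR tumours 1 to 5. The median log2 difference of the list was 4.33, and -0.21 over the members tested with IR tumours in place of control tumours.

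Laminin and hemidesmosome genes moved both ways. Of 16 listed, 4 were called higher and 1 lower, and 15 passed the filter. Lamb3, a chain of the epithelial laminin that anchors hemidesmosomes, stood at 22.2, 31.5, 32.3 and 35.5 CPM in tumours, against 385, 374, 254, 250.3 and 266 CPM in cultures (log2 fold change -3.33, SE 0.20, adjusted p = 1.46e-07). Lama4, a laminin chain of vessels, went the other way, at 26.4, 33.6, 32.5 and 45.8 CPM in tumours and 0 to 0.0457 CPM in cultures. The other members called higher were Lama2, a chain of muscle and nerve laminin, and Nid1 and Nid2, which link laminin to collagen IV. The log2 difference of Lamb3 was -2.65 when the epithelial lists were scaled to 0. In IR tumours against untreated cultures the log2 difference of Lamb3 was -0.93, under 8-fold.

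The 12 largest falls, taken among genes at 30 CPM or more on average in the cultures, included an RNA-binding protein, a Wnt ligand and a prostaglandin synthase. Igf2bp1, an oncofetal RNA-binding protein, stood at 0.927, 1.57, 1.97 and 0.191 CPM in tumours 1 to 4, against 61.2, 72.4, 41.7, 45.0 and 45.6 CPM in cultures, 45.6-fold lower in tumours (log2 fold change -5.51, SE 0.43, adjusted p = 9.63e-07). Wnt7a, a Wnt ligand of epithelia, stood at 3.71, 4.05, 1.26 and 9.15 CPM in tumours, against 83.2, 84.2, 80.8, 82.7 and 88.4 CPM in cultures (log2 fold change -4.20, SE 0.41, adjusted p = 5.01e-06). Ptgs2, the inducible prostaglandin synthase COX-2, stood at 38.8, 23.6, 37.5 and 33.6 CPM in tumours, against 335, 269.8, 419, 452 and 439 CPM in cultures (log2 fold change -3.52, SE 0.21, adjusted p = 1.29e-07). All 4 tumours lay below all 5 cultures for these 3 genes. Dlk2, a protein related to Notch ligands, stood at 1.96, 1.62, 1.97 and 1.33 CPM in tumours, against 29.6 to 44.2 CPM in cultures (log2 fold change -4.42, SE 0.19, adjusted p = 1.79e-08). Npr3, the clearance receptor for natriuretic peptides, stood at 8.09, 7.95, 6.97 and 3.86 CPM in tumours, against 43.3 to 89.2 CPM in cultures (log2 fold change -3.42, SE 0.29, adjusted p = 1.90e-06). Sorbs2, an adaptor of actin and adhesion sites, stood at 6.28, 6.19, 4.25 and 5.25 CPM in tumours, against 61.4 to 91.1 CPM in cultures (log2 fold change -3.85, SE 0.18, adjusted p = 2.83e-08). The 4 tumours were even for Dlk2 and Sorbs2, and tumour 4 was the lowest for Npr3. When the epithelial junction and keratin lists were scaled to 0, Ptgs2 and Npr3 were at -2.84 and -2.74, under 8-fold.

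The other large falls were Mirt1, Htr5b, Dynap, Plscr2, Krt80 and the mitochondrial gene mt-Nd4l. Mirt1, a noncoding RNA, stood at 1.34, 4.38, 1.67 and 3.67 CPM in tumours, against 57.1 to 91.5 CPM in cultures (25.1-fold lower, adjusted p = 5.49e-07). Htr5b, a serotonin receptor, stood at 2.99, 1.19, 1.92 and 1.05 CPM in tumours, against 38.9 to 45.7 CPM in cultures (23.6-fold lower, adjusted p = 1.37e-07). Plscr2, a phospholipid scramblase, stood at 6.08, 4.48, 5.05 and 1.29 CPM in tumours, against 57.5 to 63.8 CPM in cultures (14.4-fold lower, adjusted p = 1.92e-06). The groups lay apart for each of these. Dynap stood at 1.81 to 2.43 CPM in tumours, against 33.5 to 41.6 CPM in cultures (17.7-fold lower, adjusted p = 2.95e-09). Of the 62 genes called lower, 17 lay under 1 CPM in all tumours, 7 stayed at 10 CPM or more in all of them, and 12 carry the symbol of a predicted gene.

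**Figure D4:**
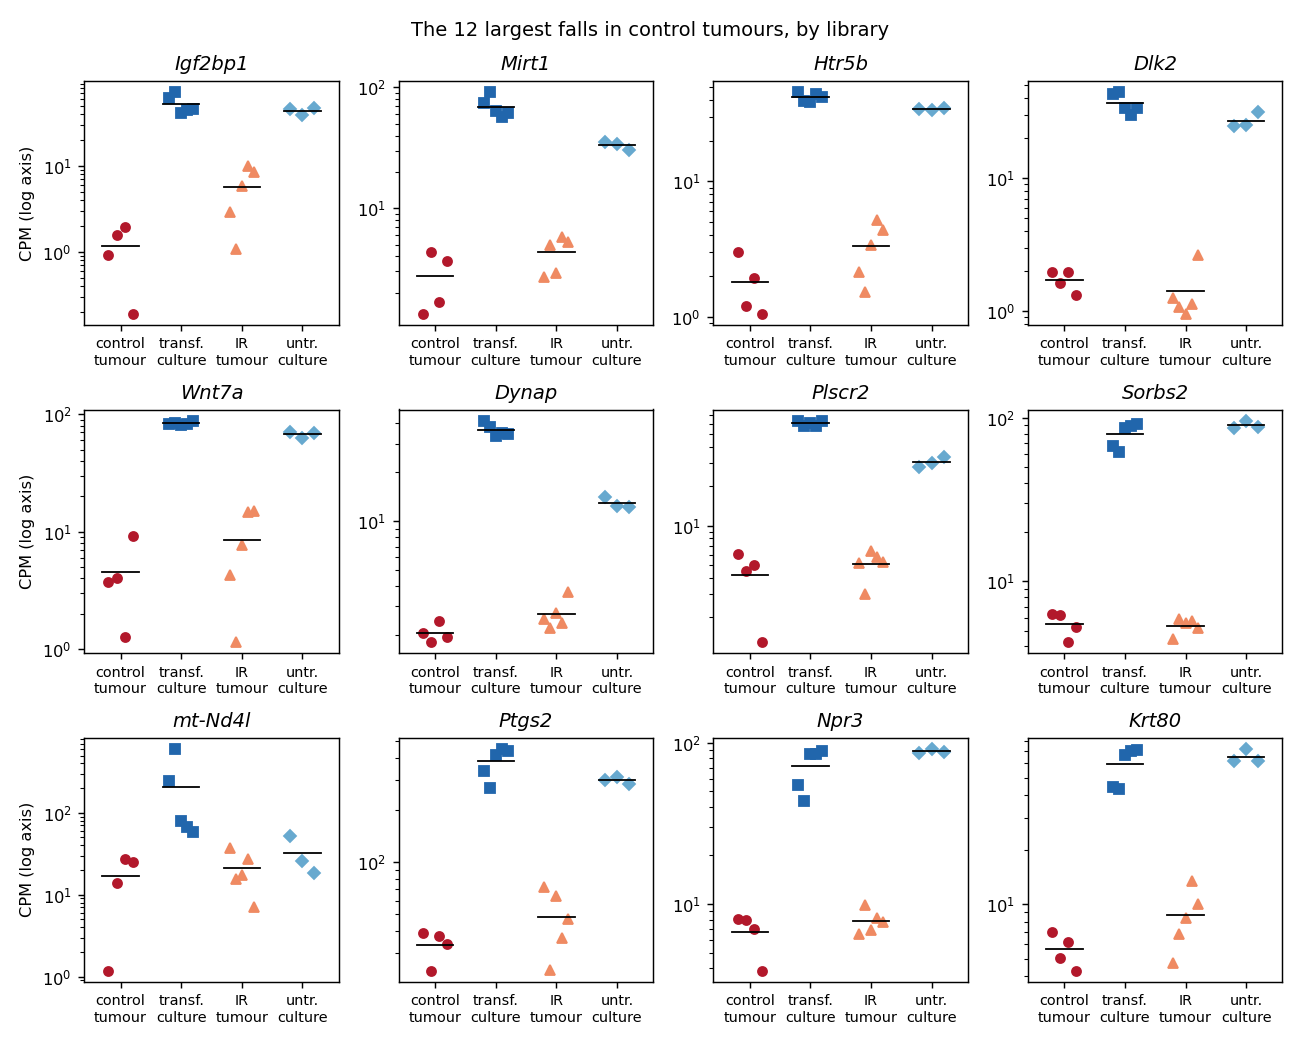
Points give the CPM of the genes with the largest falls in every library on a log axis, in the order control tumours, transfected cultures, IR tumours and untreated cultures, with a black bar at each mean. All control tumours lie below all transfected cultures for these genes, and mt-Nd4l has the widest spread within both groups.

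Mitochondrially encoded genes were high in the cultures titled scramble. They took 1.20% to 2.70% of counts in control tumours, 8.59% and 12.5% in scramble 1 and 2, and 1.71% to 1.97% in the cultures titled miR-145a-3p. mt-Nd4l, a subunit of complex I, stood at 1.18, 13.9, 27.3 and 25.0 CPM in tumours, against 242, 599.5, 80.2, 66.5 and 58.2 CPM in cultures (log2 fold change -3.63, SE 0.94, adjusted p = 0.00508). mt-Nd5, another subunit, stood at 260.0, 303, 333 and 496 CPM in tumours, against 5419, 7215, 1167, 1010 and 928 CPM in cultures (log2 fold change -3.18, SE 0.69, adjusted p = 0.00172). These 2 of the 13 listed genes were called lower, and both lost the call without scramble 2, at log2 differences of -2.70 and -2.59. mt-Nd5 also lost it without scramble 1, at -2.89. In IR tumours against untreated cultures their log2 differences were -0.63 and 0.45. Another 4 members, mt-Co2, mt-Co3, mt-Atp6 and mt-Atp8, chosen after their values were seen, were called higher there.

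Cell cycle genes stood lower in tumours by less than 8-fold. All 25 mitosis genes and 24 of 25 DNA replication genes passed the test in the lower direction, and 0 were called. Among all 12647 genes tested, 4249 passed it in that direction. Mki67, a protein of dividing cells, stood at 149, 217, 216 and 202 CPM in tumours, against 602 to 747 CPM in cultures (log2 fold change -1.75, SE 0.13, adjusted p = 5.35e-07). Ccnb1, the cyclin of mitosis, had a log2 difference of -1.64. Aurkb, a mitotic kinase, had one of -1.58. The median log2 difference was -1.38 for mitosis and -0.95 for replication, against 0.02 over all genes. An alternative scaling that set the median of the epithelial junction and keratin lists to 0 gave -0.70 and -0.28 for these medians and 0.70 for all genes. YAP targets gave 11 of 13 in the lower direction and 0 called, with a median of -1.40, and of -0.72 under the epithelial scaling.

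Of 24 glycolysis and hypoxia genes, all of which passed the filter, 5 were called higher, beside 9.95% of all genes tested. Car9, a carbonic anhydrase under direct control of HIF, stood at 146, 77.9, 114 and 159 CPM in tumours, against 7.57, 7.27, 8.13, 7.08 and 6.88 CPM in cultures (log2 fold change 4.07, SE 0.19, adjusted p = 3.49e-08). Slc16a3, the lactate exporter MCT4, stood at 68.0, 39.0, 64.2 and 56.8 CPM in tumours, against 0.0379, 0.229, 0.0821, 0.157 and 0.366 CPM in cultures (log2 fold change 8.34, SE 0.34, adjusted p = 1.51e-08). Egln3, a HIF hydroxylase that HIF itself induces, stood at 246, 139, 138 and 396 CPM in tumours, against 15.4 to 28.4 CPM in cultures (log2 fold change 3.31, SE 0.34, adjusted p = 7.88e-06). Every tumour exceeded every culture for these 3 genes. Bnip3, a mitophagy receptor, stood at 117, 72.7, 93.5 and 109 CPM in tumours, against 8.32 to 13.9 CPM in cultures (log2 fold change 3.04, SE 0.18, adjusted p = 1.32e-07). Adm, the vessel peptide adrenomedullin, stood at 15.7, 13.6, 12.1 and 41.1 CPM in tumours, against 1.26 to 2.24 CPM in cultures (12.1-fold higher, adjusted p = 1.04e-05). The log2 difference of Egln3 was 2.94 without tumour 4, and that of Bnip3 was 2.96 without tumour 1 and 2.97 without scramble 2, all under 8-fold. Vegfa, the vessel growth factor, stood at 90.7, 74.8, 73.6 and 249.5 CPM in tumours and 28.0 to 32.6 CPM in cultures, under 8-fold (log2 fold change 1.99, SE 0.34, adjusted p = 3.02e-04), and at a log2 difference of 1.40 without tumour 4. Gapdh, a glycolytic enzyme chosen after its values were seen, stood at 1561 to 1820 CPM in tumours and 2919 to 3202 CPM in cultures (log2 fold change -0.86, SE 0.09, adjusted p = 5.92e-06). The 5 called genes are all known targets of HIF, in a list made of glycolysis and hypoxia genes. The parts of low oxygen and of host cells in these calls were not tested. In IR tumours against untreated cultures Car9, Slc16a3 and Adm were the members called.

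Lipid genes gave 2 calls among 20 genes of fatty acid synthesis, Scd1 and Thrsp, a share near the 9.95% of all genes tested. Scd1, the desaturase that makes oleate, stood at 274, 860.3, 452 and 486 CPM in tumours, against 18.9, 16.1, 54.5, 63.6 and 59.2 CPM in cultures (log2 fold change 3.61, SE 0.48, adjusted p = 4.94e-05). Fasn, the fatty acid synthase, stood at 245, 428, 352 and 343 CPM in tumours and 508 to 1071 CPM in cultures, under 8-fold (log2 fold change -1.31, SE 0.26, adjusted p = 9.43e-04). Fat cells make much Scd1 and Thrsp. Of the adipocyte list 12 of 15 members were called higher. Its summed levels were 1028, 1247, 958 and 593 CPM in tumours 1 to 4 and 7.31 to 10.2 CPM in cultures. Scd1 was lowest in tumour 1 and the adipocyte sum in tumour 4. The part of fat cells in Scd1 and Thrsp was not tested. Of 18 genes of fatty acid oxidation 0 were called. The medians of the cholesterol, amino acid stress response and nuclear respiratory chain lists, -0.58, -0.64 and -0.34, changed sign under the epithelial scaling, where they were 0.10, 0.03 and 0.34. These 3 lists, and those of endoplasmic reticulum chaperones, NRF2 targets, metallothioneins, ribosomal proteins and EGF family genes, held 0 calls. Of 15 p53 targets 13 passed the filter, as did all 19 immediate early genes. Called higher were 1 of these 13 and 2 of these 19, shares near the 9.95% of all genes tested.

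Growth factor systems held calls among ligands and binding proteins. Of 13 genes of the insulin-like growth factor system 4 were called higher, Igf1, Igfbp3, Igfbp5 and Igfbp6, and 11 passed the filter. Igf1, the ligand, stood at 11.3, 19.3, 19.7 and 18.4 CPM in tumours, against 0 to 0.151 CPM in cultures. Igfbp3, its main carrier in blood, stood at 86.2, 104, 71.4 and 332 CPM in tumours, with no count in the cultures (at least 6382-fold higher, adjusted p = 2.98e-05). Igfbp5, another binding protein, stood at 48.8, 86.4, 99.0 and 46.6 CPM in tumours, with no count in the cultures (at least 3019-fold higher, adjusted p = 1.75e-06). Tumour 4 was the highest for Igfbp3, whose log2 difference was 14.03 without it and 14.76 with it. Insr, the insulin receptor, stood at 64.6, 69.4, 69.9 and 79.6 CPM in tumours and 37.3 to 45.6 CPM in cultures, under 8-fold (log2 fold change 0.76, SE 0.09, adjusted p = 2.33e-05). Irs1, a substrate of that receptor, stood at 33.3, 33.5, 35.8 and 25.3 CPM in tumours and 14.6 to 18.0 CPM in cultures, under 8-fold (log2 fold change 0.94, SE 0.12, adjusted p = 4.14e-05).

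Of 20 Wnt pathway genes 13 passed the filter, 5 were called higher and 1, Wnt7a, lower. Among all genes tested 9.95% were called higher and 0.49% lower. The count of higher Wnt pathway genes was 4 without tumour 2 or tumour 4. Sfrp2, a secreted Wnt modulator of fibroblasts, stood at 13.8, 26.4, 31.3 and 13.9 CPM in tumours, with no count in the cultures (at least 919-fold higher, adjusted p = 4.66e-06). Dkk3, a secreted protein of the Dickkopf family, stood at 14.6, 18.9, 16.5 and 21.9 CPM in tumours, with no count in the cultures (at least 772-fold higher, adjusted p = 5.31e-07). Of 18 genes of TGF-beta and BMP signalling 12 passed the filter. Of these 12, 2 were called higher, Tgfbi among them, beside 9.95% of all genes tested. Tgfb1, the ligand, stood at 163 to 195 CPM in tumours and 52.2 to 65.2 CPM in cultures, under 8-fold (log2 fold change 1.57, SE 0.09, adjusted p = 1.01e-07). Of 14 angiogenic factors 10 passed the filter and 3 were called higher, Angpt1, Angpt2 and Pdgfc. The count was 4 without tumour 2 and 2 without tumour 4. Angpt2, an antagonist of vessel stability, stood at 10.8, 9.57, 8.89 and 20.9 CPM in tumours, against 0.657 to 2.61 CPM in cultures (log2 fold change 3.16, SE 0.42, adjusted p = 4.97e-05). Its log2 difference was 2.83 without tumour 4 and 2.98 without miR-145a-3p 1, under 8-fold.

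Of the 15 rises from 10 CPM or more in every culture, the 8 largest were Col6a1, Cp, Spp1, C3, Ctsc, Sirpa, Scd1 and H2-T23. Cp, the copper protein ceruloplasmin, stood at 506, 371, 505 and 624 CPM in tumours, against 13.1, 13.1, 16.5, 18.4 and 16.5 CPM in cultures (log2 fold change 5.01, SE 0.17, adjusted p = 3.94e-09). Ctsc, a protease that activates granule enzymes, stood at 369.5, 380.2, 423 and 365 CPM in tumours, against 24.8 to 31.0 CPM in cultures (log2 fold change 3.82, SE 0.09, adjusted p = 7.81e-10). Sirpa, the phagocyte receptor for CD47, stood at 206, 183, 197 and 169 CPM in tumours, against 10.5 to 18.0 CPM in cultures (log2 fold change 3.67, SE 0.18, adjusted p = 4.40e-08). These 3 genes were even across the tumours, and bulk RNA cannot place their rise in tumour cells or host cells.

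In IR tumours against untreated cultures, which share no library with the first comparison, 12694 genes were tested, 1738 were called higher (13.7%) and 158 lower (1.24%). Summed counts per library lay between 17238070 and 21733654 in the IR tumours and between 9217914 and 11367675 in the untreated cultures. Of the 1259 genes higher in control tumours 1153 were called higher there too, which is 91.6% of the first set and 66.3% of the second. Of the 62 genes lower in control tumours 21 were called lower again, 33.9% of the first set and 13.3% of the second. Without any 1 of the 3 untreated cultures the count of lower genes in the second comparison was 30 to 33, because a gene seen in 2 cultures only could not pass a filter that asks for 3 libraries. Among those tested in both, 1198 of 1200 higher genes and 47 of 49 lower genes kept their sign. Of the 12 largest rises 11 were tested there and all 11 were called higher. Of the 12 largest falls all had the same sign and 4 were called lower, Htr5b, Dlk2, Sorbs2 and Npr3. Igf2bp1 stood at 2.93, 1.09, 5.91, 9.96 and 8.53 CPM in IR tumours, against 46.2, 39.2 and 47.0 CPM in untreated cultures, a log2 difference of -2.96. Ptgs2 stood at 71.7, 23.7, 64.0, 36.4 and 47.1 CPM in IR tumours, against 298, 313 and 286 CPM in untreated cultures, a log2 difference of -2.62. Of the 8 rises from 10 CPM 7 were called, and Scd1 had a log2 difference of 2.08.

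Prss57, a serine protease of granulocytes chosen after its values were seen, had the 1 call that went opposite ways. It stood at 2.99, 4.00, 3.79 and 2.48 CPM in control tumours, against 0 to 0.137 CPM in transfected cultures (121-fold higher with a counting interval of 48.2 to 695, adjusted p = 6.70e-06). Its log2 difference was 9.30 without scramble 2, against 6.84 with it. It stood at 0.745, 0.109, 0, 0 and 5.93 CPM in IR tumours, against 11 to 13.8 CPM in untreated cultures (log2 fold change -3.17, SE 1.24, adjusted p = 0.0443). The untreated cultures thus held it above every tumour and every transfected culture.

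**Figure D5:**
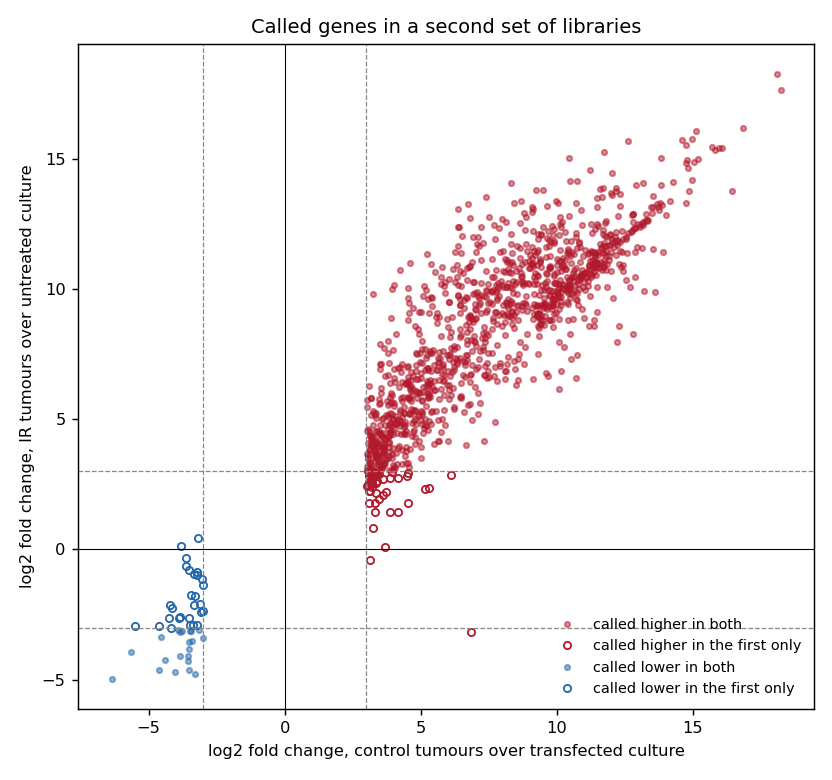
Each point is a gene called in the first comparison and tested in both, with its log2 difference between control tumours and transfected cultures on the x axis and between IR tumours and untreated cultures on the y axis. Filled points were called in both comparisons and open points in the first only (1 of them, Prss57, was called lower in the second), and dashed lines mark 8-fold; the 11 tested rises lie beyond the upper lines on both axes, while 8 of the 12 falls lie short of the lower line on the y axis.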

How the data were processed

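Gene-level estimated counts deposited by the authors were used for primary tumours, transfected 4T1 cultures and untreated 4T1 cultures, joined by gene identifier. The tumour and transfected tables are salmon tables by their headers, with 84.4% and 85.6% whole values. The untreated table holds expected counts of RSEM, per the file headers, with 97.8% whole. Libraries were paired-end TruSeq Stranded mRNA, per the labels' protocols. The submitters' processing notes name DESeq2, STAR, Trimmomatic and featureCounts with builds GRCm38, GRCm39, mm10 and mm39, and give no role to them; they do not tie a build to a table. Because groups were made and sequenced as separate experiments, only differences of 8-fold or more were called. Columns of the series tables that could not be tied to a sample, 3 in number, were not used.

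Counts were rounded to whole numbers. A gene was kept where 3 or more libraries reached 3 CPM, which left 12647 of 57126 joined genes. The fit used TMM scaling and edgeR 4.0.16 (R 4.3.3, quasi-likelihood), with Benjamini-Hochberg adjustment over all genes tested, an adjusted p of 0.05 and a log2 threshold of 3. CPM are relative to the summed counts of tested genes times the TMM factor. A fold against a group without counts uses 3 counts over the group. Counting intervals are 95% and cover counting error only. On simulated counts for the first comparison, with 12202 genes in the fit, all 60 genes set at a log2 difference of 4 and all 60 at -4 were called, 0 of 40 at 2 or at -2, and 0 of 12002 unchanged genes. The changed genes had a mean of 10 CPM or more, all genes had the same dispersion, and rises and falls were equal in number. The simulation thus does not cover the 979 of 1259 higher genes that lay below 1 CPM in all cultures, nor genes uneven between tumours. Alternatives were DESeq2 1.42.0, limma 3.58.1, other scalings, filters and thresholds, other culture or tumour groups, and each library left out in turn.

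Named genes were the 12 largest rises and falls, the first 3 and up to 5 called members per list by mean level, the 8 largest rises from 10 CPM or more in every transfected culture, and 10 fixed markers and insulin genes. Members and lists were chosen with earlier results of these data known. Promoters are from RefSeq on GRCm38.p6. Values of some members are not reported here.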

Additional observations from a re-analysis of the deposited data

Results flagged for a closer look

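In 51 of 428 groups of named genes and list sums, the highest or lowest library stood apart from the others of its group by Dixon's test at 95%. A chance rate of 1 in 20 would need independent groups with normally distributed levels. The groups here were raw CPM from the same libraries, and list sums include named genes, so the count has no chance rate to be compared with. For Ctss, Prss57, Dcn, H2-Aa, Clec10a, Ccr2 and Cdh11 only 1 culture held any reads. Such a group is flagged by construction.

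Control tumour 2 was high for lymphocyte and antigen-presentation genes. It held Igkc at 1064, Ighm at 398, Ptprc at 220.1, Ccr7 at 48.0, Cd4 at 43.9, Ciita at 40.7 and Clec10a at 20.0 CPM. Its summed levels stood apart for B and plasma cell genes at 2229, T cell genes at 717, neutrophil genes at 338 and lymphatic genes at 225 CPM. Its summed level of Wnt pathway genes, at 435 CPM, was instead the lowest of the 4.

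Control tumour 1 was high for Krt10 at 177 CPM and for the skin keratinocyte sum at 439 CPM. It was low for Bgn at 188, Adamts2 at 43.7 and Igf1 at 11.3 CPM. Control tumour 3 was high for Fbln2 at 397 CPM.

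Control tumour 4 was high for Col6a1 at 791, Col6a2 at 518, Mmp9 at 423, Ccl8 at 333, Igfbp3 at 332, Cdh1 at 297, Vegfa at 249.5, Adm at 41.1, Nid2 at 33.7, Angpt2 at 20.9, Cma1 at 18.9 and Cxcl1 at 16.9 CPM. Its sums stood apart for cholesterol genes at 1661 CPM and for mast cell genes at 161 CPM.

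Among the cultures, scramble 2 stood apart for Ccn2 at 399.5, Epcam at 182 and mt-Atp8 at 299 CPM and for the sums of laminin and hemidesmosome genes at 2759 and of checkpoint genes at 44.7 CPM. It also did so at low levels for Col6a3 at 0.503, Prss57 at 0.137 and Ctss at 0.0457 CPM. Scramble 1 stood apart for Pdgfra at 8.14 CPM, and at low levels for Col15a1 at 0.568, Pdpn at 0.379 and Ciita at 0.303 CPM. The miR-145a-3p cultures stood apart at such levels only: culture 1 for Dcn and H2-Aa at 0.0411 CPM, culture 2 for Thrsp at 0.157 and Clec10a at 0.0314 CPM, and culture 3 for Igfbp6 at 0.204, Ccr2 at 0.122 and Cdh11 at 0.0407 CPM.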

How the results depend on the processing

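Counts of genes called higher and lower in control tumours against transfected cultures were 1259 and 62. With DESeq2 they were 1244 and 57, with limma voom 1299 and 63, with upper quartile scaling 1295 and 55, and with total counts 1299 and 53. Without the filter on low counts they were 3244 and 503, and in the second comparison 3766 and 300, more genes being tested by construction. The count of lower genes was 22 with edgeR's test against a fold of 8 (1060 higher), 213 at a 4-fold and 18 at a 16-fold threshold (1623 and 1053 higher), 22 with the scramble libraries alone (1205 higher), 27 with the median of the epithelial junction and keratin lists set to 0 (1479 higher), and 178 with untreated cultures in place of transfected ones (1596 higher). The thresholds change these counts by construction, and so do the scramble libraries alone, since 2 cultures cannot meet a filter that asks for 3 libraries and fewer lower genes could be tested; for the other settings the cause was not tested. Leaving out 1 library gave 1081 to 1294 higher and 58 to 64 lower genes. In the second comparison it gave 1575 to 1733 higher and 30 to 162 lower, with 30 to 33 whenever an untreated culture was left out. The replicate block gave 1255 and 66 in the first and 1703 and 171 in the second comparison. Samples with the same number did not deviate together (r -0.0638 to 0.0389), so no pairing by number was seen. With so few libraries the check cannot exclude one.

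Of 3273 values for named genes under an alternative, 3194 kept their direction and side of the threshold, 58 lost the call, 13 gained it and 8 changed sign. Of 1045 list medians under an alternative 806 moved by no more than 1 SD between the 4 control tumours and 239 by more. The log2 difference of Krt10 was -0.55 with IR tumours in place of control tumours and lay between -0.16 and 3.63 when 1 library was left out, the lowest without control tumour 1. With untreated cultures in place of transfected ones Prss57 was at -1.84, mt-Nd5 at 0.32, mt-Atp6 at 5.26, mt-Atp8 at 3.09, mt-Co2 at 3.16 and mt-Co3 at 4.40; the cause was not tested. For list counts the libraries left out were control tumours 1, 2 and 4 and the 2 scramble libraries, chosen after seeing the data. The depth gives a count of 0 over the 5 cultures a limit of 0.0233 CPM.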
